A study of Mus musculus with 49 samples.

Results

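The 77 cytosolic ribosomal protein genes described here were taken from the 38355 genes of the deposited count table by their names, as every gene called Rpl or Rps followed by a number (with or without a, l or x), together with Rpsa, Rplp0, Rplp1 and Rplp2. Pseudogenes and S6 kinases were left out by this rule, which used no measured value. The set held 31 genes of the small subunit and 46 of the large subunit, and all 77 passed the filter on low counts in the fits of 3 groups of an age and of all 6 groups. Rps27 lay near that filter and was left out by it in some alternative fits. Polyadenylated RNA of mouse hippocampus was sequenced in 49 libraries. The endophilin A proteins, membrane-bending partners of synaptic vesicle endocytosis, are encoded by Sh3gl2 (endoA1), Sh3gl1 (endoA2) and Sh3gl3 (endoA3). At postnatal day 13 to 21 there were 7 libraries of the endoA1A2 double knockout (DKO), 7 of its littermates (KOWT) and 10 of wild-type animals (WT-DKO). At day 0 there were 9 libraries of the endoA1A2A3 triple knockout (TKO), 8 of its littermates (KOWTKO) and 8 of wild-type animals (WT-TKO).

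The littermate controls are not wild type at all endophilin loci. Sh3gl1, the gene that separates mutants from littermates, was near 0 in both mutants. Its level, as CPM (the count relative to the library's reads on genes, TMM-scaled), was 0.352 to 1.16 in DKO libraries, against 52.5 to 66.4 in KOWT libraries and 54.0 to 62.4 in WT-DKO libraries. The newborn values were 0.459 to 1.32 for TKO, 33.7 to 83.3 for KOWTKO and 63.0 to 75.9 for WT-TKO. Sh3gl2 was as low in KOWT (median 39.6 CPM) as in DKO (39.9 CPM), against 440.2 CPM in WT-DKO, and Sh3gl3 was near 0 in both TKO and KOWTKO. At the RNA level, mutants and littermates thus differed in Sh3gl1, and mutants and wild types in every gene named in the mutants' labels. The labels give the older age for DKO, KOWT and WT-DKO, while their growth entry calls every sample newborn; the age entry was followed. Nothing in the labels says that replicates are separate animals, so the p-values measure the spread between these libraries. Either of 2 RNA kits was used, and the labels do not say for which library.

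Ribosomal proteins assemble with ribosomal RNA into the small subunit, which decodes messenger RNA, and the large subunit, which forms peptide bonds. Most of their mRNAs begin with a terminal oligopyrimidine (TOP) tract, a run of C and T bases opened by a C, through which the mTORC1 kinase adjusts their translation. Growing and dividing cells make many ribosomes, and in the maturing brain neurons come to translate part of their mRNA in dendrites, near synapses.

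The start sites show how far the set shares this tract, and they include the genes to which the results below return. Each window below holds 15 bases before and 15 bases from the RefSeq start (GRCm38.p6), 5′ to 3′ on the gene's strand, with the unbroken run of C or T from the start in capitals.
Rps6 (chr4:86857353-86857382, minus strand): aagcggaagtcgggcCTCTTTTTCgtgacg
Rps27 (chr3:90213634-90213663, minus strand): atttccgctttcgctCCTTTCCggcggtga
Rpl35 (chr2:39005117-39005146, minus strand): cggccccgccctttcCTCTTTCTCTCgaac
Rplp2 (chr7:141447636-141447665, plus strand): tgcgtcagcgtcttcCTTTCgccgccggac
Rpl27a (chr7:109519180-109519209, plus strand): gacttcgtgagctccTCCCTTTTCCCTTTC
Rpl24 (chr16:55966260-55966289, plus strand): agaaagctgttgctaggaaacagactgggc
A C followed by at least 4 C or T bases exactly at the annotated start, on the gene's strand, was found in 13 of 68 promoter entries of these genes (19.1%) and in 823 of 32851 entries of all genes (2.51%). Within 5 bases of the start the shares were 44.1% and 18.3%. Entries existed for 57 of the 77 genes. The run of Rpl27a opens with T, so the rule did not count it, and Rpl24 had no run at its annotated start. A match describes the letters at an annotated position only.

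Ribosomal protein genes have many processed pseudogenes, and the count table sets reads aligned to several places apart, in a line of their own. The stretches below, from GENCODE M21 on GRCm38, show how alike such copies can be. Each is the first of the coding sequence with matching ends and few differing bases, so the search itself set their likeness. Over all annotated transcripts, Rplp0 shared 357 of its 1655 windows of 50 bases with Gm8730. Rpl26 shared 289 of 1495 with Gm15772, and Rpl3 shared 1061 of 3306 with Rpl3-ps1. In each pair 60 bases differ at 1 position, in capitals, and the second name is the processed pseudogene.
Rplp0 (chr5, coding bases 28 to 87): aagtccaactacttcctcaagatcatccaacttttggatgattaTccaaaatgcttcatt
Gm8730 (chr8): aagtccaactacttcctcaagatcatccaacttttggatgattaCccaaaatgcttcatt
Rpl26 (chr11, coding bases 133 to 192): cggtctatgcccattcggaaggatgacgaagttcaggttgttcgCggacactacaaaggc
Gm15772 (chr5): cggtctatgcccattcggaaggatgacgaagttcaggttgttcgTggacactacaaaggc
Rpl3 (chr15, coding bases 13 to 72): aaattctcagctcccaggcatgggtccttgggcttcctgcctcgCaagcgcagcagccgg
Rpl3-ps1 (chrX): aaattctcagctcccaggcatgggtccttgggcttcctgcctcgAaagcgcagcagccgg

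The share of 50-base windows of the principal transcript found in no other annotated gene had a median of 57.0% and was 1.35% in Rps27. Each gene shared windows with a median of 12 other genes, and Rps25 with 286. Across the 77 genes, which are not independent replicates, this share and the mean level had a Pearson correlation of 0.56 and a Spearman correlation of 0.53. The levels below are therefore levels of uniquely placed reads, and a low value need not mean a scarce mRNA. Of the unique windows of all annotated transcripts of a gene, few can lie in the principal one. The share was 4.84% for Rpl36a, 3.51% for Rpl10a, 6.14% for Rpl5 and 0.45% for Rps27. Which transcripts of these genes gave the reads was not tested. Rps6, the small-subunit protein phosphorylated by S6 kinases, averaged 1.31 CPM with 15.4% of its windows unique, and Rps27 averaged 0.548 CPM. At the other end stood Rpl4, a large-subunit protein lining the exit tunnel, with 593 CPM, and Rps3 with 433 CPM. Per kilobase of exon, Rpl4 had the highest mean level, 296 CPM per kb, followed by Rplp1, an acidic protein of the stalk that recruits elongation factors, with 269.5 CPM per kb. The top 5 genes held 37.5% of the reads on the set and the top 10 held 57.0%, while 25 genes averaged under 10 CPM.

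Libraries held 13116766 to 56977730 reads on genes. Reads aligned to several places amounted to 38.4 to 43.4 per 100 reads on genes in the older libraries and 54.2 to 86.8 in the newborn ones. The highest value, 86.8, belonged to KOWTKO replicate 7. In 5 older libraries, DKO replicates 5 and 6 and KOWT replicates 4, 5 and 6, Sh3gl3 was also low, which their labels do not state. Libraries WT-TKO 5 and 6 stood apart in the ribosomal protein genes themselves. Both lay below the lowest of the other 6 WT-TKO libraries by a factor of 2 or more in 7 of the 77 genes (9.09%), against 99 of 16805 genes overall (0.589%). Rpl26 had 1.43 and 1.34 CPM in these libraries and 46.3 to 63.1 CPM in the others, Rpl3 had 1.98 and 1.82 CPM against 29.0 to 37.8 CPM, and Rpl34 had 2.48 and 2.97 CPM against 64.1 to 91.4 CPM. Rps2, with 16.3 and 3.94 CPM against 76.5 to 89.6 CPM, Rpl30, Rps18 and Rps28 were the remaining 4; Rpl26, Rps18 and Rps28 are named after their values were seen. Pseudogene copies were high there. Gm15772 had 27.1 and 30.4 CPM in WT-TKO 5 and 6, against at most 0.465 CPM in any other library, and Rpl3-ps1 had 18.2 and 18.9 CPM, against at most 2.65 CPM. Rps2-ps13 had 13.3 and 27.9 CPM, against at most 0.0987 CPM. Rplp0, the base of the stalk, varied likewise at the older age. It spanned 43.9 to 146 CPM in the DKO libraries, 63.3 to 108 CPM in those of KOWT and 94.6 to 122 CPM in those of WT-DKO, while Gm8730 had medians of 6.58 CPM in DKO and 6.41 CPM in KOWT and was at or under 0.258 CPM in WT-DKO. Whether these libraries carry a different sequence at these loci was not tested.

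**Figure D1:**
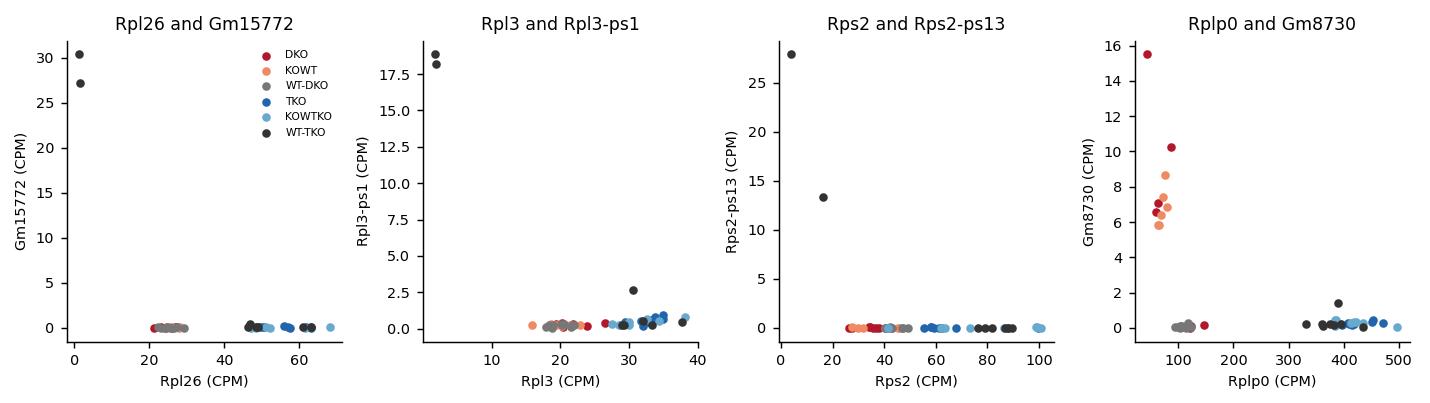
Levels in CPM of ribosomal protein genes (x axis) and of a processed pseudogene copy (y axis), 1 point per library, coloured by group. WT-TKO 5 and 6, at 1.43 and 1.34 CPM of Rpl26, have the most of the copies of Rpl26, Rpl3 and Rps2, and the Gm8730 levels above 5 CPM belong to DKO and KOWT libraries.

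Most of the set was lower at the older age. Its summed share of reads on genes was 0.304% ± 0.0105 in WT-DKO (SD, n = 10) and 0.747% ± 0.0736 in WT-TKO (SD, n = 8), and no older library of any group reached a newborn one. Ranges were 0.285 to 0.319% in WT-DKO and 0.641 to 0.867% in WT-TKO. The small-subunit genes made up 0.126% of reads in WT-DKO and 0.326% in WT-TKO, and the large-subunit genes 0.178% and 0.420%. Within an age the sums overlapped. The older means were 0.303% for DKO, 0.292% for KOWT and 0.304% for WT-DKO. The newborn means were 0.798% for TKO, 0.746% for KOWTKO and 0.747% for WT-TKO. The highest sum of all, 0.900%, was that of KOWTKO 7. These are whole-tissue values, in which fewer cells of a type and less RNA per cell cannot be told apart.

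**Figure D2:**
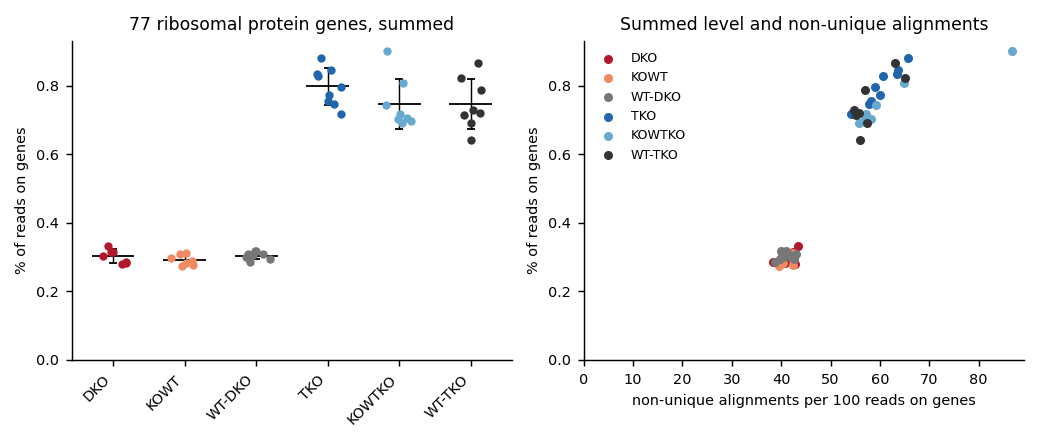
Left, the summed share of reads on genes that fell on the 77 ribosomal protein genes, in percent, by group, 1 point per library, with the mean (wide line) and SD (bars). Right, the same share against reads aligned to several places per 100 reads on genes; the older libraries lie between 0.275 and 0.332% and the newborn ones between 0.641 and 0.900%, with KOWTKO 7 at the far right.

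In the wild types, 70 of 77 genes were lower and 2 higher at day 13 to 21 than at day 0 (edgeR quasi-likelihood test, Benjamini-Hochberg adjusted p under 0.05). The 72 called genes were 93.5% of the set, against 81% of the 16805 genes tested, and the 70 lower ones 90.9%, against 41.5% of all genes; 39.5% of all genes were higher. The median log2 fold change of the set was -1.07, a level in WT-DKO 0.476 times that in WT-TKO, against -0.03 over all genes. It was -1.08 in the small and -0.98 in the large subunit. The ranges of the 2 wild-type groups did not overlap in 53 of the 77 genes of the set. Over all genes they did not overlap in 8909 of 16805, a share of 53% that lies below that of the set. Age and mouse line of these wild types cannot be told apart.

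Rplp0 had the lowest fold change. Its level was 94.6, 105 and 122 CPM (lowest, median, highest) in WT-DKO and 332, 379 and 435 CPM in WT-TKO, groups far apart, with a log2 fold change of -1.83 ± 0.13 (SE, edgeR quasi-likelihood, adjusted p = 2.0e-18). Rpl35, a protein near the tunnel exit named after its values were seen, changed by -1.66. Other falls were those of Rps4x, the X-linked small-subunit gene, at -1.45, Rpl10, which joins the large subunit last, at -1.40, and Rpl22, an RNA-binding large-subunit protein, at -1.35. Rps9 changed by -1.33 and Rpl7 by -1.37. Rplp1 and Rplp2, the partners of Rplp0 in the stalk, changed by -0.85 ± 0.08 and -1.20 ± 0.10. Rpsa, the laminin-receptor protein of the small subunit, changed by -1.07, and Rps27a, made as a fusion with ubiquitin, by -0.56. Rps27l, a p53-responsive copy of Rps27 in human cells, changed by -0.87, and Rps27 by -0.83.

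Rpl24, which lies at the interface of the subunits and is mutated in the Belly spot and tail mouse, went the other way. It had 49.9, 62.7 and 67.7 CPM in WT-DKO and 27.4, 32.4 and 35.3 CPM in WT-TKO. Every older wild type lay above every newborn one. The log2 fold change was 0.95 ± 0.07 (edgeR quasi-likelihood, adjusted p = 2.6e-17). Rpl24 spans chr16:55966275-56008913 on mm10, and its annotated exons overlap 238 bases of Pcnp on the opposite strand and 489 bases of the antisense gene Zbtb11os1. The library kit does not keep strand, so reads of these genes cannot be told apart there; Pcnp itself changed by 0.30 ± 0.08. Rps6 was also higher, by 0.59 ± 0.18, with 0.886, 1.53 and 1.87 CPM in WT-DKO and 0.771, 0.977 and 1.41 CPM in WT-TKO. These groups overlapped, on few uniquely placed reads. Rpl27a, Rpl26, Rpl29, Rpl3 and Rps29 were not called (Rpl29 is named after its values were seen). Rpl27a had 23.2, 26.0 and 28.4 CPM in WT-DKO and 18.8, 24.4 and 29.0 CPM in WT-TKO, a difference of 0.12 ± 0.07, and it is the member other than Rpl24 and Rps6 with a positive value.

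**Figure D3:**
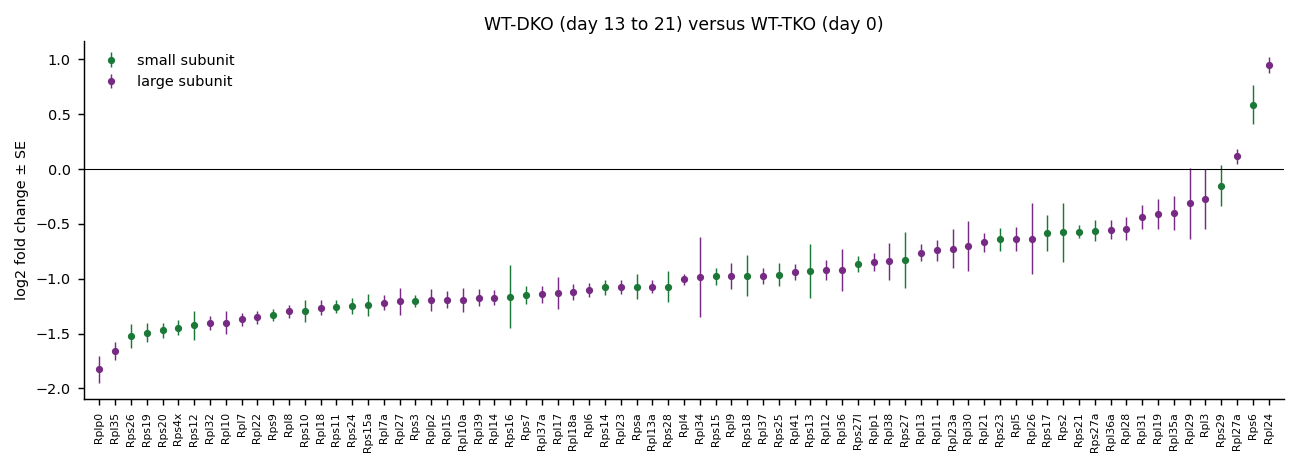
Log2 fold change with its standard error for 75 of the 77 genes in WT-DKO (day 13 to 21) against WT-TKO (day 0), in order of size, coloured by subunit. Rplp0 is at the low end with -1.83 and Rpl24 at the high end with 0.95; wide bars belong to genes low in libraries WT-TKO 5 and 6, such as Rpl34.

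Without WT-TKO 5 and 6, an alternative chosen after seeing the data, 75 genes were called with age, 73 of them lower, and 13358 of 16853 over all genes. Rpl26 (-1.05), Rpl3 (-0.68) and Rpl29 (-0.72) were then among the lower ones, and Rpl34 and Rps2 stood at -1.39 and -0.94. Rpl29 was also low in WT-TKO 7 and 8, at 1.27 and 9.73 CPM, against 16.1 to 19.4 CPM in WT-TKO 1 to 4. The call of Rps2 was lost in 13 of the fits that left out 1 library. With the share of non-unique alignments as a covariate, 62 genes were called, 59 lower and 3 higher. Calls over all genes also fell, from 13620 to 11364 of 16805. That share is higher in every newborn library than in any older one, so this fit cannot separate it from age. Its part in the age change was not tested. Genes with the C-led tract at the annotated start had a median of -0.97 (n = 13), those without it -1.07 (n = 44) and those with no promoter entry -0.999 (n = 20).

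Other genes of the translation machinery followed the set to differing degrees with age. Of 19 translation factors known to have TOP mRNAs, 19 were lower in WT-DKO than in WT-TKO, with a median of -1.10. They included Rack1, a scaffold on the small subunit (-1.66), and the elongation factors Eef1a1 (-1.35) and Eef1b2 (-1.30). Of 46 ribosome biogenesis genes, 35 were lower and 3 higher (median -0.54), led by the nucleolar helicase Ddx21 (-1.42). Of 15 genes of RNA polymerase I, which transcribes ribosomal RNA, 11 were lower and none higher. Mycn and Myc, transcription factors that raise ribosome synthesis, changed by -2.27 and -2.46. Myc had the lowest value among 18 genes of mTORC1 and TOP control. Of these 18, 10 were lower and 5 higher, with a median of -0.15 and a highest value of 1.76. The 78 mitochondrial ribosomal protein genes had 33 lower, 25 higher and a median of -0.06. Over all genes 41.5% were lower and 39.5% higher, so the mitochondrial counts lay near the background. Summed markers of proliferating cells and of progenitors and immature neurons were also lower at the older age, with all 15 and all 12 genes lower in WT-DKO than in WT-TKO. Oligodendrocyte markers were higher, 12358 ± 3560 CPM in WT-DKO and 360.2 ± 332 CPM in WT-TKO (SD). The part of cell composition in the fall of the set was not tested.

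In the older mutants single genes moved in both directions. Between DKO and KOWT, 4 genes rose and 3 fell. These 7 were 9.09% of the set, against 20.8% of the 16114 genes tested, of which 10.2% rose and 10.6% fell. The median was 0.04, and 0.00 over all genes, and all 7 encode large-subunit proteins. Between DKO and WT-DKO, 5 rose and 5 fell, 13% of the set against 26.1% of all genes (13.1% higher, 13% lower), with a median of -0.02.

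Rpl27a (chr7:109519147-109522367, mm10), a large-subunit protein whose mouse mutation causes ataxia, gave the clearest change. It had 17.0, 18.8 and 23.0 CPM in DKO, against 25.5, 27.6 and 30.1 CPM in KOWT libraries and 23.2, 26.0 and 28.4 CPM in WT-DKO libraries. All 7 DKO libraries lay below every KOWT and every WT-DKO library. The log2 fold change was -0.52 ± 0.07 against KOWT (edgeR quasi-likelihood, adjusted p = 1.7e-05) and -0.41 ± 0.06 against WT-DKO (adjusted p = 3.7e-05). KOWT and WT-DKO overlapped, with a difference of 0.11 ± 0.06 (adjusted p = 0.38). Without the 5 libraries low in Sh3gl3, the changes were -0.52 and -0.43. The only overlapping annotated gene, the small nucleolar RNA Snora3, had a median of 0 reads, and 64.1% of the windows of Rpl27a are unique. Groups that do not overlap occurred in 3.26% of all genes between DKO and KOWT, and Rpl27a was the 1 gene of the set among them.

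Rpl24 was lower too. It had 38.1, 53.0 and 62.3 CPM in DKO, against 58.9, 65.0 and 73.7 CPM in KOWT libraries and 49.9, 62.7 and 67.7 CPM in WT-DKO libraries. In DKO, 5 of 7 libraries lay below every KOWT library, and the groups overlapped. The changes were -0.32 ± 0.08 against KOWT and -0.22 ± 0.08 against WT-DKO (edgeR quasi-likelihood, adjusted p = 0.0083 and 0.042). Its overlapping neighbour Pcnp differed by 0.06 ± 0.08 between DKO and KOWT. Without the 5 Sh3gl3-low libraries the change was -0.31 against KOWT and still called, and -0.14 against WT-DKO and not called. Oligodendrocyte markers, whose sum was 10910.2 ± 3987 CPM in DKO, against 15961 ± 3135 CPM for KOWT and 12358 ± 3560 CPM for WT-DKO, moved with the littermate comparison, 3 of 12 lower and 1 higher. Markers of progenitors and immature neurons had 5 of 12 higher and none lower in DKO than in KOWT, with sums of 460.0 to 849.6 CPM in DKO and 484.7 to 631 CPM in KOWT. Markers of meninges and fibroblasts had 4 of 9 higher and none lower, with sums of 411 to 807 CPM in DKO and 335 to 462 CPM in KOWT. Against WT-DKO, all 5 red blood cell markers were lower, with sums of 9.53 to 73.2 CPM in DKO and 71.8 to 179 CPM in WT-DKO. In KOWT 3 of these 5 were also lower than in WT-DKO (median -1.22). Microglia had 4 of 10 lower in DKO than in WT-DKO, proliferation 4 of 15 and endothelium 3 of 8, with none higher. Meninges and fibroblasts had 2 of 9 higher and none lower there. Progenitors and immature neurons had 2 of 12 higher and 2 lower against WT-DKO, and inhibitory neurons 1 of 10 higher and 3 lower. Over all genes 13% were lower and 13.1% higher against WT-DKO, and 10.6% and 10.2% against KOWT. No marker of these lists had a median of 0 in any of these groups, and their part in these changes was not tested. Rpl24 kept its call against KOWT in every fit that left out 1 library, and lost that against WT-DKO in 13 of 17.

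Rpl36a, the other gene lower in DKO than in KOWT, had 3.72, 5.09 and 5.80 CPM in DKO and 4.73, 6.11 and 7.32 CPM in KOWT, with a change of -0.30 ± 0.11 (edgeR quasi-likelihood, adjusted p = 0.049). Those that rose were Rpl5, Rpl32, Rpl22 and Rpl10a. Rpl5, which binds 5S ribosomal RNA and the p53 regulator Mdm2, had 5.88, 7.23 and 11.3 CPM in DKO and 4.24, 5.27 and 7.51 CPM in KOWT. It rose by 0.50 ± 0.14 against KOWT (adjusted p = 0.011), the groups overlapping, with 6.16% of its windows unique. Rpl32 had 72.8, 76.8 and 82.7 CPM in DKO and 59.6, 65.3 and 74.8 CPM in KOWT, with 5 of 7 DKO libraries above all KOWT libraries and a change of 0.21 ± 0.06. Rpl22 had 119, 133 and 166 CPM in DKO and 107, 119 and 143 CPM in KOWT, a change of 0.19 ± 0.07. Both are genes of high level and mostly unique windows. Rpl10a changed by 0.32 ± 0.12, with 11.9% of its windows unique. Leaving out 1 of 14 libraries ended the call of Rpl10a in 11 cases, of Rpl36a in 9 and of Rpl22 in 7, and never that of Rpl5 or Rpl32. Without the 5 Sh3gl3-low libraries Rpl5 (0.49), Rpl32 (0.23), Rpl22 (0.17), Rpl10a (0.27) and Rpl36a (-0.25) were not called. Calls over all genes also fell in that smaller fit, from 3347 of 16114 to 1082 of 16367. Rpl24 and Rpl27a remained lower, and Rpl30 and Rpl34 were called higher, both genes that vary widely among KOWT libraries.

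Against the wild types, Rps2, a protein at the mRNA entry channel, joined Rpl27a as a gene whose groups did not overlap. It had 26.4, 34.6 and 37.9 CPM in DKO and 40.3, 42.2 and 49.4 CPM in WT-DKO, and the change was -0.38 ± 0.09 (edgeR quasi-likelihood, adjusted p = 0.0033). KOWT spanned both groups, with 27.5 to 45.6 CPM. Such separation was seen in 2.86% of all genes. Rpl12, at the base of the stalk, fell by 0.31 and Rpl14 fell by 0.19. Rps14, a protein of the small-subunit platform, rose by 0.17 ± 0.05, Rpl22 by 0.19 ± 0.06, Rpl5 by 0.34 ± 0.13 and Rpl32 by 0.15 ± 0.05. Rps27 was called higher, by 0.87 ± 0.26, with 0.140, 0.676 and 1.02 CPM in DKO and 0.217, 0.365 and 0.562 CPM in WT-DKO, groups that overlapped. It failed the filter on low counts when DKO and WT-DKO were fitted alone and without WT-DKO 7, and was not called by limma-voom (0.72, adjusted p = 0.059). Without the 5 Sh3gl3-low libraries, 4 genes were called, all lower: Rpl12, Rpl27a, Rps2 and Rps15a, a small-subunit gene named after its values were seen. Rpl22 (0.12), Rpl32 (0.12), Rpl5 (0.27), Rps14 (0.15) and Rps27 (0.83) were then not called. Calls over all genes fell in that smaller fit from 4203 of 16114 to 2971 of 16367. Of 17 fits without 1 library, the call was lost in 13 for Rpl24, 12 for Rpl32, 11 for Rpl5, 9 for Rpl14 and 1 for Rpl22 (without DKO 6), and in none for Rpl12, Rpl27a, Rps2 or Rps14. Rps27 was called in the 16 of them that tested it. Rplp0 differed by -0.22 ± 0.17 between DKO and WT-DKO and was not called.

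Between the controls of the older age, KOWT and WT-DKO, 1 gene was called, 1.3% of the set against 4.41% of all genes (2.33% higher, 2.09% lower). Rpl34 had 2.06, 13.2 and 28.2 CPM in KOWT and 24.0, 27.7 and 29.6 CPM in WT-DKO, a change of -0.96 ± 0.26 (edgeR quasi-likelihood, adjusted p = 0.037), and 6 of 7 KOWT libraries lay below all WT-DKO libraries. The call was lost in 8 of 17 fits without 1 library, with values from -1.25 to -0.76.

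**Figure D4:**
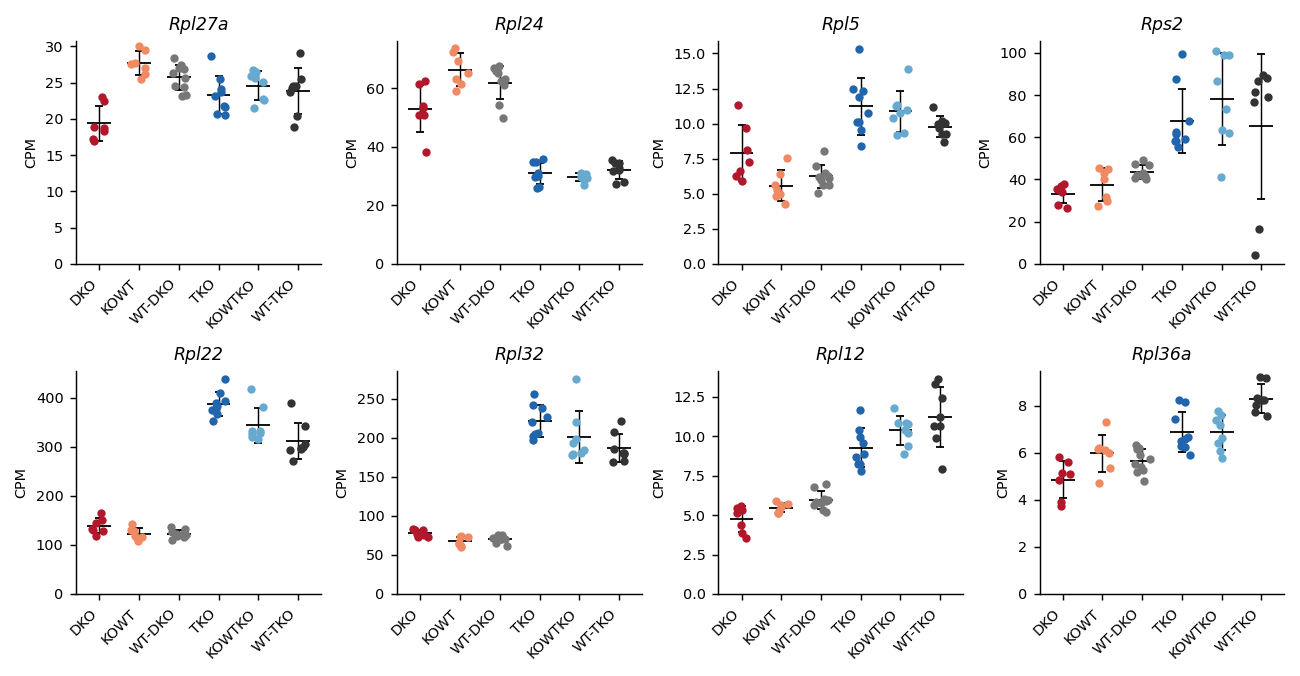
Levels in CPM of 8 ribosomal protein genes called in at least 1 comparison of mutants with controls, by group, 1 point per library, with the mean (wide line) and SD (bars). The DKO points of Rpl27a (17.0 to 23.0 CPM) lie below all KOWT points (25.5 to 30.1 CPM). Its TKO points (20.5 to 28.6 CPM) overlap those of KOWTKO (21.5 to 26.7 CPM) and reach beyond them at both ends.

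In the newborn mutants, 1 gene was called between TKO and KOWTKO, 1.3% of the set against 5.09% of the 15715 genes tested (2.41% higher, 2.68% lower). Rpl27, a large-subunit protein, had 4.59, 6.19 and 7.41 CPM in TKO and 5.95, 8.14 and 11.6 CPM in KOWTKO, overlapping, with a change of -0.40 ± 0.12 (edgeR quasi-likelihood, adjusted p = 0.045). It was not called in 11 of 17 fits without 1 library, by limma-voom or without KOWTKO 3, the littermate library with the least Sh3gl1. Library KOWTKO 7 bears on this comparison. Without it 9 genes of the set were called, with Rpl22, Rpl32 and Rps14 among 7 that rose and Rpl21 and Rpl27 the 2 that fell. With the share of non-unique alignments as a covariate 13 were called, 11 of them higher. Calls over all genes grew too, from 800 of 15715 to 1444 of 15812 without KOWTKO 7 and to 1548 of 15715 with the covariate.

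Between TKO and WT-TKO, 9 genes rose and 3 fell. These 12 were 15.6% of the set, against 22.9% of all genes (10.8% higher, 12% lower), and the median was 0.08, against -0.00 over all genes. Rpl22 had 353, 383 and 439 CPM in TKO and 272, 299.7 and 390 CPM in WT-TKO. The groups overlapped, with 4 of 9 TKO libraries above all WT-TKO ones, and the change was 0.31 ± 0.06 (edgeR quasi-likelihood, adjusted p = 0.0013). Rps25, a small-subunit protein needed for some internal ribosome entry sites, rose by 0.30 ± 0.09, Rps7 by 0.26 ± 0.09, Rps14 by 0.25 ± 0.08, Rpl32 by 0.24 ± 0.08, Rps20 by 0.24 ± 0.07, Rpl4 by 0.20 ± 0.06, Rpl7 by 0.19 ± 0.07 and Rplp0 by 0.16 ± 0.05. Rpl4 had 783, 832 and 951 CPM in TKO and 680.3, 713 and 877 CPM in WT-TKO, ranges that overlapped. Without 1 of 17 libraries the call was lost in 10 fits for Rps14 and for Rpl7, 8 for Rplp0 and 5 for Rps7, and without WT-TKO 3 also for Rpl32 and Rps20. Rpl22, Rpl4 and Rps25 kept theirs in all 17. Of the lists of cell type markers, 6 had several genes lower in TKO than in WT-TKO and none higher. Those of meninges and fibroblasts had 8 of 9 lower, with sums of 116 to 205 CPM in TKO and 169 to 577 CPM in WT-TKO. Astrocyte markers had 7 of 10 lower, with sums of 1168 to 1326 CPM in TKO and 1268 to 1951 CPM in WT-TKO. Microglia had 6 of 10 lower, with 98.9 to 127 CPM in TKO and 114 to 201 CPM in WT-TKO, oligodendrocytes 5 of 11, and choroid plexus and inhibitory neurons 4 of 9 each. The part of these markers in the changes of the set was not tested.

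Those lower in TKO than in WT-TKO were Rpl36a, Rpl12 and Rpl21, with changes of -0.27 ± 0.08, -0.28 ± 0.09 and -0.27 ± 0.07. Of the windows of Rpl36a, 14.5% are unique. Rpl36a had 5.92, 6.60 and 8.23 CPM in TKO and 7.55, 8.23 and 9.20 CPM in WT-TKO, with 7 of 9 TKO libraries below all WT-TKO libraries. Of 17 fits without 1 library, the call of Rpl12 was lost in 7, and those of Rpl36a and Rpl21 in none. It was also lower in KOWTKO, at 5.80, 6.92 and 7.79 CPM, with a change of -0.27 ± 0.08 against WT-TKO (edgeR quasi-likelihood, adjusted p = 0.022). KOWTKO against WT-TKO had 2 called genes, 2.6% of the set against 20.9% of all genes (10.5% in each direction), the second being Rps6 with 0.50 ± 0.17. Of 16 fits without 1 library, the call of Rps6 was lost in 8 and that of Rpl36a in 2, without KOWTKO 1 or WT-TKO 1. Without WT-TKO 5 and 6, 3 genes were called between TKO and WT-TKO: Rpl22, higher, and Rpl12 and Rpl36a, lower. The median of the set was then 0.04. Calls over all genes changed less, from 3595 of 15715 to 3176 of 15824. The sum of the set in TKO spanned 0.719 to 0.882% of reads, inside the 0.641 to 0.867% of WT-TKO except at its upper end.

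**Figure D5:**
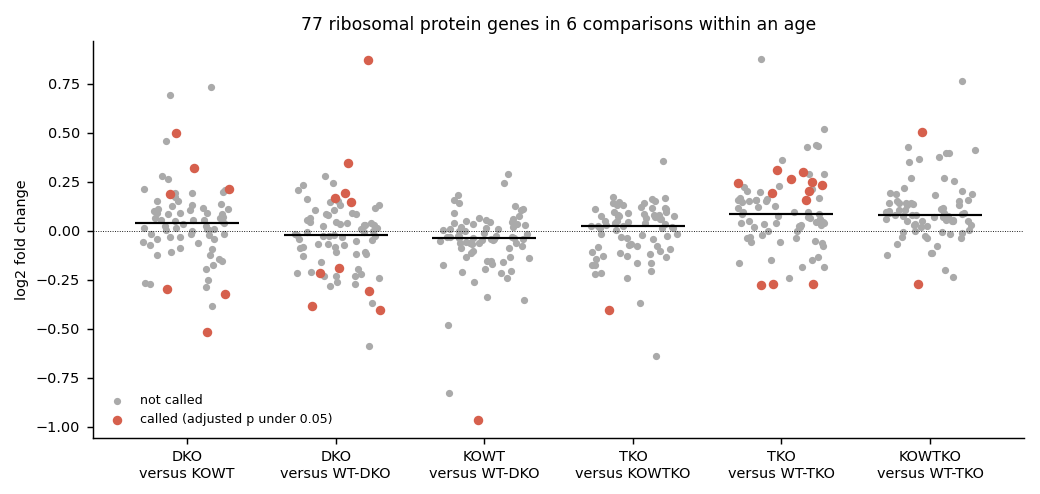
Log2 fold changes of the 77 genes in the 6 comparisons within an age, 1 point per gene, with called genes marked and the median as a line. Most points lie near 0; Rpl27a at -0.52 and -0.41 in the comparisons of DKO, and Rpl22 at 0.31 in TKO against WT-TKO, are among the called genes.

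The littermate effect of the older and that of the newborn mutants were compared directly, as DKO against KOWT minus TKO against KOWTKO. It differed in 2 genes, 2.6% of the set against 8.9% of all genes (4.12% higher, 4.78% lower). Rpl27a changed by -0.52 ± 0.07 between DKO and KOWT and by -0.08 ± 0.08 between TKO and KOWTKO, a difference of -0.44 ± 0.10 (edgeR quasi-likelihood, adjusted p = 0.0054). Rpl24 changed by -0.32 ± 0.08 and 0.06 ± 0.06, a difference of -0.38 ± 0.11 (adjusted p = 0.018). In newborn libraries Rpl24 had 25.8, 30.1 and 35.6 CPM in TKO and 27.0, 29.9 and 31.1 CPM in KOWTKO, groups that overlapped. Without the 5 Sh3gl3-low libraries the difference was -0.45 for Rpl27a, still called, and -0.38 for Rpl24, with an adjusted p of 0.059 by the edgeR quasi-likelihood test. The 2 mutants differ in age and in endoA3, which cannot be told apart here. The 10 genes called between DKO and WT-DKO and the 12 between TKO and WT-TKO had 4 in common in the same direction, 40% and 33.3% of the lists: Rpl22, Rpl32 and Rps14, higher, and Rpl12, lower. The libraries of these comparisons are separate, but genes called alike in both were not counted over all genes. Without the 5 Sh3gl3-low libraries Rpl22, Rpl32 and Rps14 were not called between DKO and WT-DKO. Without WT-TKO 5 and 6, Rpl32 and Rps14 were not called between TKO and WT-TKO. Of the 4, Rpl12 alone kept its call in both of these fits.

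The rest of the translation machinery was measured beside the set in the mutants. Eif4b, an initiation factor that helps the Eif4a helicase and has a TOP mRNA, was higher in every comparison of mutants with controls, by 0.27 ± 0.05 in DKO against KOWT, 0.28 ± 0.04 in DKO against WT-DKO, 0.22 ± 0.05 in TKO against KOWTKO and 0.35 ± 0.05 in TKO against WT-TKO (edgeR quasi-likelihood, adjusted p from 3.6e-05 to 0.020). Of the 19 TOP factors, 4 rose and 1 fell in DKO against KOWT, where 10.2% of all genes rose and 10.6% fell. In TKO against WT-TKO 10 rose and none fell, where 10.8% of all genes rose and 12% fell, and in TKO against KOWTKO 1 rose and 18 were not called. In KOWTKO against WT-TKO 2 rose. Of 78 mitochondrial ribosomal protein genes, 66 were not called in DKO against KOWT, 11 fell and 1 rose, with a median of -0.05. In DKO against WT-DKO 60 were not called, 16 fell and 2 rose, with a median of -0.03, where 13% of all genes fell and 13.1% rose. Mrps25 changed by -0.40 ± 0.05 and -0.31 ± 0.05 in these comparisons. Of 46 ribosome biogenesis genes, 4 rose and 5 fell in DKO against KOWT, shares near those of all genes, with Ddx21 at 0.31 ± 0.07 among those that rose. In DKO against WT-DKO 2 rose and 7 fell. In TKO against WT-TKO 11 rose and 4 fell, in TKO against KOWTKO none rose and 2 fell, and in KOWTKO against WT-TKO 7 rose and 3 fell. Bop1, a factor of large-subunit maturation, changed by -0.29 ± 0.05 in TKO against KOWTKO.

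The authors' deposited table called 12 of the 77 genes in DKO against KOWT, 14 in DKO against WT-DKO, 2 in TKO against KOWTKO and 16 in TKO against WT-TKO. These included 6 of the 7, 10 of the 10, 1 of the 1 and 12 of the 12 genes called here. For Rpl27a in DKO against KOWT the authors' deposited table gives a log2 fold change of -0.57.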

How the data were processed

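Per the submitters' processing notes, the authors used CASAVA 1.8.2, STAR 2.3.0e, the mm10 genome and DESeq2. The counting program and annotation are unknown: not given in the sources used here. In the deposit, the table holds whole read counts per gene for 49 libraries; its 5 closing lines, which name no gene, were kept out of totals; relative to 100 reads on genes they include 38.4 to 86.8 non-unique alignments and 9.96 to 21.6 reads without a feature. Per the file headers, the authors' comparison tables hold mean signal (counts divided by size factors), log2 fold changes and p-values.

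Counts were fitted with edgeR 4.0.16 (R 4.3.3; filterByExpr, TMM, robust quasi-likelihood test), the 3 groups of an age together, or all 6 for age contrasts; p-values were Benjamini-Hochberg adjusted over all genes tested. Printed CPM are TMM-scaled over the 49 libraries; marker sums are unscaled CPM. Scripts were tested on simulated counts. Alternatives used DESeq2 1.42.0, limma 3.58.1, covariates and left-out libraries. Start sites and pseudogenes come from RefSeq and GENCODE.

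The members and gene lists were chosen with earlier results of these data known. Named genes were up to 6 called per direction by smallest p, role genes, the extremes of level, of group range and of the age difference; others are marked. Some members enter the counts and sums but are not reported singly here.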

Additional observations from a re-analysis of the deposited data

Results flagged for a closer look

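Among 258 groups of values of the named genes, 14 had a highest or lowest library far from the rest; chance alone flags about 1 in 20. Library KOWTKO 7, which also has the most non-unique alignments, was the high one in 6 of its group: Rpl32 with 275.0 CPM, Rpl5 with 13.9 CPM, Rpl8 with 622 CPM, Rplp0 with 496 CPM, Rps4x with 103 CPM and Rps9 with 378 CPM. KOWTKO 8 was high in Rpl39 with 35.9 CPM. In the older groups DKO 6 was high in Rps6 with 2.50 CPM, KOWT 6 in Rplp0 with 108 CPM and in Rplp2 with 35.5 CPM, and WT-DKO 7 in Rpsa with 2.81 CPM. In the newborn mutants TKO 4 was high in Rpl13a with 448 CPM, TKO 2 was high in Rps16 with 17.9 CPM, and TKO 1 was low in Rps9 with 264 CPM.

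The effect of DKO against KOWT minus that of TKO against KOWTKO differed from 0 for Rpl27a (-0.44) and Rpl24 (-0.38) on the log2 scale, by the test of the difference itself.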

How the results depend on the processing

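Counts of called genes moved by over 1.5 times in these cases. For DKO against KOWT, 4 were called without a filter on low counts, with the non-unique share as covariate, with only the 2 groups compared, and without the 5 Sh3gl3-low libraries. For DKO against WT-DKO, 4 were called without those libraries. For KOWT against WT-DKO, 4 were called by DESeq2, with only the 2 groups, without those libraries and with pseudogenes summed in, 3 by limma-voom and with the non-unique covariate, 2 with the no-feature covariate and 0 without a filter. For TKO against KOWTKO, 2 were called by DESeq2, 13 with the non-unique covariate, and 0 without a filter, by limma-voom, with the no-feature covariate, without KOWTKO 3 and with pseudogenes summed in; the unadjusted p was under 0.05 for 8 genes in the edgeR fit. For TKO against WT-TKO, 3 were called without WT-TKO 5 and 6. For KOWTKO against WT-TKO, 4 were called by DESeq2, 5 with the no-feature covariate, 0 without a filter, and 1 with only the 2 groups or without WT-TKO 5 and 6. The difference between ages kept 1 gene without the Sh3gl3-low libraries, where calls over all genes fell from 1496 of 16805 to 354 of 17122. Calls over all genes moved in the other fits listed too, among differing numbers of genes tested. They were 1082 to 3149 for DKO against KOWT (3347 in the edgeR fit) and 566 to 989 for KOWT against WT-DKO (711). For TKO against KOWTKO they were 471 to 1548 (800), and for KOWTKO against WT-TKO 2618 to 3997 (3288). Rpl34 (0.032) and Rps2 (0.02) turned in direction with age under limma-voom. The cause was not tested.

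Leaving out 1 library at a time gave 4 to 9 genes for DKO against KOWT, 6 to 10 for DKO against WT-DKO, 0 to 3 for KOWT against WT-DKO, 0 to 9 for TKO against KOWTKO, 5 to 20 for TKO against WT-TKO, 0 to 7 for KOWTKO against WT-TKO and 71 to 74 with age. Rpl27a stayed called in DKO against both controls throughout. The lowest DKO counts came without DKO 1, DKO 6 or KOWT 2 (4 each) and without DKO 6, WT-DKO 1 or WT-DKO 4 (6 each). Calls over all genes were lower there too, 2835, 2548 and 3032 against 3347, and 3344, 3776 and 3849 against 4203. TKO against WT-TKO had 5 without WT-TKO 3, 7 without TKO 8 and 20 without WT-TKO 7. All-gene calls in these were 3003 of 15802, 2941 of 15686 and 4154 of 15802, against 3595 of 15715. TKO against KOWTKO had 9 without KOWTKO 7, 2 without TKO 2, TKO 3, KOWTKO 6 or KOWTKO 8, and 0 without any other library but TKO 9. All-gene calls were 807 to 1045 in the fits with 2 and 330 to 860 in those with 0, against 800. KOWT against WT-DKO had 0 without KOWT 1, 3 or 7 or WT-DKO 1, 2, 4 or 7, 2 without KOWT 5 or 6 and 3 without KOWT 4. All-gene calls were 470 to 677 in the fits with 0, 811 and 527 in those with 2 and 538 without KOWT 4, against 711. KOWTKO against WT-TKO had 0 without KOWTKO 1, 7 without WT-TKO 7, 4 without WT-TKO 8, and 1 without KOWTKO 2 or 5 or WT-TKO 1, 2, 4 or 6. All-gene calls were 2597 without KOWTKO 1, 3972 without WT-TKO 7 and 3739 without WT-TKO 8. They were 2509 to 3038 in the fits with 1, against 3288.

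Whether replicate numbers pair the samples could not be settled from the correlations of same-numbered libraries. Their medians ran from -0.07 to 0.07 over the 7 comparisons of 2 groups. Between DKO and KOWT 3 of 7 pairs were over 0.1, up to 0.44, and 3 correlated best with their own number. Between KOWTKO and WT-TKO these counts were 3 and 3 of 8 pairs. With the replicate block, 5 genes were called for DKO against KOWT, 2 for DKO against WT-DKO, 2 for KOWT against WT-DKO, 0 for TKO against KOWTKO, 4 for TKO against WT-TKO, 4 for KOWTKO against WT-TKO and 66 with age. The same samples without the block gave 4 for DKO against KOWT, 2 for DKO against WT-DKO, 1 for KOWT against WT-DKO, 0 for TKO against KOWTKO, 8 for TKO against WT-TKO, 1 for KOWTKO against WT-TKO and 68 with age. Over all genes, with and without the block, 2911 and 2228 were called for DKO against KOWT. For DKO against WT-DKO they were 1808 and 2684, and for KOWT against WT-DKO 516 and 725. TKO against KOWTKO had 205 and 594, TKO against WT-TKO 1981 and 3108, and KOWTKO against WT-TKO 3464 and 3116. With age they were 12627 and 12826. Levels of genes with few unique windows rest on few reads, which limits their precision.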
